A study of Homo sapiens with 14 samples.

Results

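Integrins are the receptors through which a cell holds on to the matrix around it, and the mRNAs of 10 of their subunits were followed through the polysome gradient of MDA-MB-231 breast cancer cells with and without silencing of DAP5. The 10 genes are 6 alpha subunits (ITGAV, ITGA1, ITGA2, ITGA3, ITGA5 and ITGA6) and 4 beta subunits (ITGB1, ITGB3, ITGB4 and ITGB5), chosen by name among the 58434 genes counted. Of these, 4 (ITGAV, ITGA1, ITGA3 and ITGA5) stand on a list that the study drew from these same samples for loss of polysome mRNA, so a decrease of those 4 is not independent evidence. The other subunits were also chosen with earlier results of these data known, so their decrease is not independent evidence either. MDA-MB-231 is an established human line from a triple-negative breast cancer. Every culture carried a stable lentiviral construct that makes an shRNA (a hairpin RNA that silences its target) when doxycycline is given, either a non-silencing shRNA (MB-231-shNSi) or 1 shRNA against DAP5 (MB-231-shDAP5). Cells were selected with puromycin and sorted for the red reporter of the vector, and both lines received 1 µg/ml doxycycline for 6 days, so the controls carried vector and drug too. DAP5, encoded by EIF4G2, is a relative of the scaffold eIF4G of the translation machinery that lacks the part binding the cap-binding protein. RNA was sequenced from total mRNA, from light polysomes (poorly translated mRNA, 2 to 3 ribosomes) and from heavy polysomes (well-translated mRNA, 4 or more ribosomes) of 2 cultures a line, and from a moderate pool of the 2 MB-231-shNSi cultures, 14 libraries in all. A line is a sorted population with 1 hairpin, and a second hairpin against DAP5 was not analysed here.

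An integrin is a pair of 1 alpha and 1 beta subunit, both of which cross the plasma membrane once. The alpha subunit largely sets which matrix protein is bound, and the beta tail docks talin and kindlin, which link the receptor to actin. The beta 1 chain pairs with most alpha chains of epithelial and mesenchymal cells, whereas beta 3 and beta 5 pair with alpha V and beta 4 pairs only with alpha 6. In carcinoma cells such receptors carry adhesion, migration and survival signals from fibronectin, vitronectin, collagen and laminin.

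The libraries held 25899838 to 30795910 counted reads each. EIF4G2, the silenced gene, was counted at 1442 and 1396 CPM in total mRNA of MB-231-shNSi and 541 and 749 CPM in MB-231-shDAP5, a log2 change of -1.11 ± 0.18 (SE, edgeR quasi-likelihood test, adjusted p = 0.0172), and it was lower in all 6 MB-231-shDAP5 libraries than in any MB-231-shNSi library. Without the first MB-231-shDAP5 culture that call was lost (adjusted p = 0.680), as it was with limma (0.143), with library sizes alone (0.0501) and with all 14 libraries in 1 fit (0.443). CPM are read counts scaled to a common library size and so are shares of 1 library. They carry no information on how much mRNA a pool held in all. All 6 markers of the line's mesenchymal type (VIM, CD44, EGFR, LGALS1, S100A4 and CAV1) were above 10 CPM in total mRNA. They summed to 7509 to 7631 CPM in MB-231-shNSi and 6336 to 6737 CPM in MB-231-shDAP5. Of 7 luminal and epithelial markers that the line should lack or hold at a low level, GATA3 was at 10.7 to 13.3 CPM, KRT19 at 8.34 to 24.1 and EPCAM at 3.82 to 5.08, the other 4 (ESR1, PGR, FOXA1 and CDH1) were under 1 CPM with PGR at 0, and the list summed to 26.5 to 28.2 CPM in MB-231-shNSi and 32.4 to 41.1 in MB-231-shDAP5. What part these differences in the marker sums of both lists play in the results was not tested. The 7 blood, endothelial and neuronal markers in the table summed to 0.219 to 0.550 CPM in MB-231-shNSi and 0.305 to 0.325 CPM in MB-231-shDAP5. Replicate libraries correlated at r = 0.900 to 0.982 across 9387 genes, which are not independent of each other. Over the same genes the mean profile of MB-231-shDAP5 heavy polysomes correlated at r = 0.960 with the MB-231-shNSi moderate pool and at r = 0.864 with the MB-231-shNSi heavy pool. Its correlation was nearly as high with MB-231-shNSi total mRNA (r = 0.957) and was 0.870 with MB-231-shNSi light polysomes. The MB-231-shDAP5 light libraries, titled light but carrying the pool code of the moderate libraries, correlated at r = 0.964 with MB-231-shNSi light and r = 0.810 with MB-231-shNSi moderate. The MB-231-shDAP5 total libraries carry the word polysome in their titles where those of MB-231-shNSi do not. They were taken as total mRNA, and if they hold polysome RNA instead, the total mRNA and translation efficiency values compare unlike samples. The heavy polysome results are also given with the moderate pool in, or added to, the control. In such bulk libraries fewer cells making an mRNA and less of it per cell cannot be told apart. By the study's account the 2 cultures of a line come from experiments run independently of each other. With 2 cultures against 2 no exact permutation p can be below 0.333.

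ITGA3 and ITGB1, which together form the laminin-binding receptor alpha 3 beta 1, dominated the integrin mRNA of the control cells. Per kilobase of merged exons (GENCODE v29), the mean level in MB-231-shNSi total mRNA was 122 ± 22.4 CPM per kb for ITGA3 (SD, n = 2) and 73.3 ± 1.97 for ITGB1. ITGA6 followed at 27.0 ± 2.16, then ITGB4 at 19.2 ± 2.29, ITGA5 at 15.7 ± 4.51 and ITGB5 at 14.05 ± 0.827 CPM per kb, and the values of ITGA5 overlapped those of both its neighbours in the 2 cultures. Lower still stood ITGA2 (4.59 ± 1.63) and ITGAV (4.15 ± 0.258), whose values overlapped each other, and at the bottom ITGA1 (0.555 ± 0.00634) and ITGB3 (0.300 ± 0.0814 CPM per kb). ITGA3 alone made 68.2 and 71.6% of the level summed over the alpha members in the MB-231-shNSi total libraries, and 72.7 and 68.0% in MB-231-shDAP5. ITGAE, which is not a member, is not in that sum and had a mean of 5.35 CPM per kb in MB-231-shNSi total mRNA. The order in MB-231-shDAP5 total mRNA differed in the middle only, where ITGB4 (20.4 ± 6.55 CPM per kb) stood above ITGA6 (15.4 ± 5.204) with overlapping values, and ITGB5 (9.44 ± 0.883) above ITGA5 (9.06 ± 0.732), again with overlap. The reads behind these levels ranged from 9 to 83 a library for ITGB3 up to 11518 to 76413 for ITGA3, so ITGB3 is the least precise member. In the annotation the 10 genes lie on chromosomes 2 (ITGAV and ITGA6), 3 (ITGB5), 5 (ITGA1 and ITGA2), 10 (ITGB1), 12 (ITGA5) and 17 (ITGA3, ITGB3 and ITGB4). Exons of ITGA1 share strand and position with PELO and AC022133.1, and those of ITGB3 with AC068234.1, so both counts may include or lack reads of the neighbour. The pseudogene ITGB1P1 took 15 to 190 reads a library, 0.314 to 0.911% of the ITGB1 count.

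**Figure D1:**
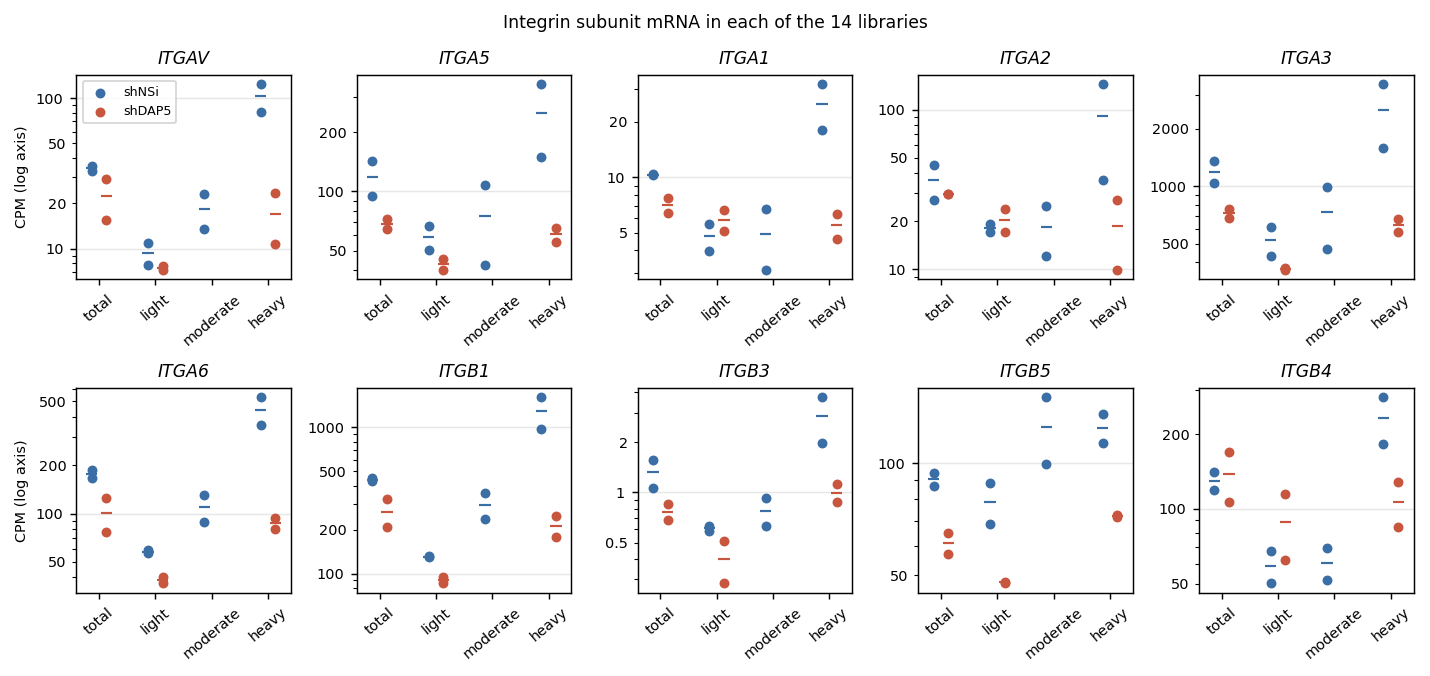
CPM of each integrin subunit (log axis, scaled over the 14 libraries) in total mRNA and in the light, moderate and heavy polysome pools. Each point is 1 library and each bar the mean of 2, blue is MB-231-shNSi and red is MB-231-shDAP5, which has no moderate pool. The MB-231-shNSi heavy libraries lie above all other libraries for every subunit except ITGA2 and ITGB5.

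In control cells the integrin mRNAs were concentrated in heavy polysomes. All 10 were higher in heavy than in light polysomes of MB-231-shNSi (edgeR, all 8 libraries of the line, adjusted p from 7.12e-06 to 0.0297), a direction called for 33.8% of all genes tested and for 1688 of 2427 genes with a coding sequence in the integrins' range of lengths. The median log2 ratio of the 10 subunits was 2.17, and 0.95 with counts corrected for coding length, where ITGB4 (0.43, adjusted p = 0.0686) and ITGB5 (-0.43, 0.0536) no longer passed the test and the other 8 did (3619 genes lower and 3593 higher of 12715). ITGAV, the subunit shared by the vitronectin receptors, and ITGB1 stood out with ratios of 10.9-fold (log2 3.44 ± 0.28) and 9.60-fold (log2 3.26 ± 0.36). ITGA6 had a ratio of 7.53-fold. The remaining alpha subunits, ITGB3 and ITGB4 lay between 3.85-fold and 4.95-fold, whereas ITGB5, a beta partner of alpha V, had only 1.58-fold. In the moderate pool the levels were lower. For 9 subunits the moderate pool was lower than the heavy pool (background 23.1% lower), from -2.58 ± 0.27 for ITGAV to -1.84 ± 0.30 for ITGA5 on the log2 scale, and ITGB5 was at -0.10 ± 0.25 (adjusted p = 0.793). ITGB5 was counted at 99.3 and 151 CPM in the moderate pool and 113 and 136 CPM in heavy polysomes, so the pools overlapped for this subunit alone of the 10.

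With DAP5 silenced the estimated ratio of heavy to light polysomes was smaller for each subunit. Within MB-231-shDAP5, 6 of 10 mRNAs were still higher in heavy than in light polysomes (background 25.9% higher), namely ITGAV, ITGA3, ITGA6, ITGB1, ITGB3 and ITGB5, with log2 ratios from 0.50 ± 0.18 for ITGB5 to 1.22 ± 0.45 for ITGB3. The collagen-binding subunits ITGA1 and ITGA2 had log2 ratios of -0.20 ± 0.25 and -0.33 ± 0.30, and ITGA5 and ITGB4 had 0.40 ± 0.20 and 0.20 ± 0.19, none of which passed the test. With gene counts corrected for coding length, 2 members were called higher and 1 lower in this comparison (2968 genes lower and 3285 higher of 12700), and with library sizes alone 2 were called higher (4605 genes lower and 2960 higher of 15619).

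Between the lines, integrin mRNA fell in heavy polysomes, while in total and light polysome mRNA no subunit passed the main edgeR test. Of the 10 subunits, 8 were called lower in MB-231-shDAP5 heavy polysomes, against 16.7% of all 14270 genes tested, with a median log2 change over the 10 of -2.04 beside 0.09 for all genes. Among genes with a coding sequence as long as those of the integrins the share called lower was 43.7%, with a median of -0.74. In total mRNA no subunit passed the edgeR test (background 0.354% in either direction). There 9 of 10 estimates were below 0 with a median of -0.64 beside 0.01 for all genes, 6 had an unadjusted p under 0.05 (background 12%), and DESeq2 called 1 (ITGA3) and limma none. The edgeR test called 4 subunits lower (ITGA3, ITGA5, ITGA6 and ITGB1) without a filter on low counts, where 427 genes lower and 150 higher of 26388 passed, and the same 4 under a block for replicate, where 253 genes lower and 112 higher of 14992 passed. In light polysomes no subunit and no gene at all passed the edgeR test (background 0%), while 1330 of 15529 genes, among the subunits only ITGB5, had an unadjusted p under 0.05. DESeq2 called 76 genes lower and 29 higher there and limma none, no subunit among them, and the median over the 10 was -0.45 beside -0.01. With 1 culture left out this median ranged from -0.54 (first MB-231-shNSi culture) to -0.22 (second MB-231-shNSi culture). Both MB-231-shDAP5 cultures lay below both MB-231-shNSi cultures for 10 subunits in heavy polysomes (30.9% of all genes), for 8 in total mRNA (20.4%) and for 7 in light polysomes (20.2%). The counts varied with single cultures. Without the second MB-231-shDAP5 culture no subunit was called in heavy polysomes, where that fit called 1 gene lower and 1 higher of 14891, and the median of the subunits was -1.98. That median was -1.31 without the second MB-231-shNSi culture, -2.55 without the first and -2.19 without the first MB-231-shDAP5 culture. In total mRNA 3 were called lower without the second MB-231-shDAP5 culture (150 genes lower and 115 higher of 15655) and 2 without the first MB-231-shNSi culture (331 genes lower and 55 higher of 15634). In light polysomes 4 were called lower and 1 higher without the first MB-231-shNSi culture, a fit that called 2637 genes lower and 2041 higher of 16190. In such fits the lone culture is assumed to vary like the pair of the other line.

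**Figure D2:**
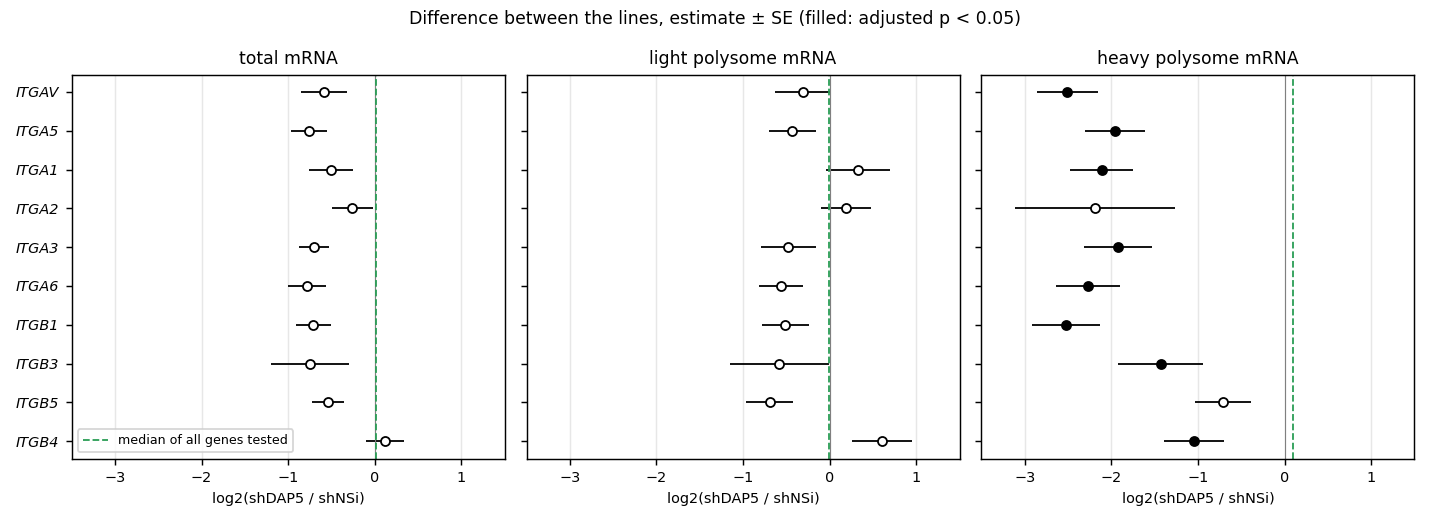
Log2 ratio of MB-231-shDAP5 over MB-231-shNSi for each subunit in total, light polysome and heavy polysome mRNA (edgeR estimate ± SE, 2 cultures a line). Filled points passed an adjusted p of 0.05, the dashed line is the median of all genes tested, and the heavy polysome estimates run from -2.52 for ITGB1 to -0.71 for ITGB5.

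The receptors for fibronectin and vitronectin are built on ITGAV and ITGA5. ITGAV in total mRNA was at 35.6 and 32.6 CPM in MB-231-shNSi and 15.4 and 29.1 CPM in MB-231-shDAP5. In heavy polysomes the same cultures held 81.3 and 124 CPM in MB-231-shNSi and 23.3 and 10.7 CPM in MB-231-shDAP5, and in light polysomes 7.76 and 10.95 CPM in MB-231-shNSi and 7.21 and 7.65 CPM in MB-231-shDAP5. Every MB-231-shDAP5 culture was thus below both controls in each of the 3 fractions, though by little in the light one. The heavy polysome change of ITGAV was -2.51 ± 0.35 on the log2 scale (adjusted p = 8.83e-09), that in total mRNA -0.59 ± 0.27 (adjusted p = 0.410). ITGA5 is the classic fibronectin receptor chain and pairs with beta 1. In total mRNA it was at 94.5 and 143 CPM in MB-231-shNSi and 64.8 and 72.6 CPM in MB-231-shDAP5. Its heavy polysome level was 149 and 351 CPM in MB-231-shNSi and 55.5 and 65.7 CPM in MB-231-shDAP5, and its light polysome level 50.5 and 66.8 CPM in MB-231-shNSi and 45.6 and 39.996 CPM in MB-231-shDAP5. The log2 change was -1.96 ± 0.35 in heavy polysomes (adjusted p = 4.83e-06) and -0.76 ± 0.21 in total mRNA (adjusted p = 0.127), and the lines did not overlap in any of the 3 fractions.

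ITGA1 and ITGA2 make the collagen receptors with beta 1, and ITGA2 also binds laminin. ITGA1 stood at 10.2 and 10.4 CPM in MB-231-shNSi and 6.42 and 7.76 CPM in MB-231-shDAP5 in total mRNA. Heavy polysomes held ITGA1 at 18.1 and 32.2 CPM in MB-231-shNSi and 6.32 and 4.62 CPM in MB-231-shDAP5, and light polysomes 5.57 and 3.97 CPM in MB-231-shNSi and 6.64 and 5.12 CPM in MB-231-shDAP5. Its heavy and total levels did not overlap between the lines, while the light levels overlapped. The heavy polysome change of ITGA1 was -2.11 ± 0.36 (adjusted p = 1.70e-06). For ITGA2 the total mRNA libraries showed 27.2 and 45.4 CPM in MB-231-shNSi and 29.6 and 29.7 CPM in MB-231-shDAP5. In heavy polysomes it was at 36.4 and 145 CPM in MB-231-shNSi and 27.3 and 9.91 CPM in MB-231-shDAP5, in light polysomes at 17.2 and 19.2 CPM in MB-231-shNSi and 23.7 and 17.1 CPM in MB-231-shDAP5. The control heavy libraries lay far apart from each other, and its log2 change of -2.19 ± 0.93 in heavy polysomes, with the widest SE of the members, did not pass the test (adjusted p = 0.172). Its total and light levels overlapped between the lines.

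ITGA3 and ITGA6 bind laminins, ITGA3 with beta 1 and ITGA6 with beta 1 or beta 4. ITGA3, the most abundant, reached 1038 and 1349 CPM in MB-231-shNSi and 684 and 757 CPM in MB-231-shDAP5 in total mRNA. ITGA3 in heavy polysomes stood at 1577 and 3437 CPM in MB-231-shNSi and 576 and 670.2 CPM in MB-231-shDAP5, and in light polysomes at 432 and 611 CPM in MB-231-shNSi and 373 and 364 CPM in MB-231-shDAP5. The lines were separate in all 3 fractions, and in heavy polysomes ITGA3 was 3.79-fold lower (log2 -1.92 ± 0.39, adjusted p = 5.65e-05). ITGA6 in total mRNA came to 187 and 167 CPM in MB-231-shNSi and 76.3 and 124 CPM in MB-231-shDAP5. For ITGA6 the heavy polysome values were 357 and 531 CPM in MB-231-shNSi and 93.8 and 80.4 CPM in MB-231-shDAP5, and the light polysome values 56.5 and 59.1 CPM in MB-231-shNSi and 36.7 and 40.2 CPM in MB-231-shDAP5. These too were separate in each fraction, with log2 changes of -2.27 ± 0.37 in heavy polysomes (adjusted p = 4.11e-07) and -0.79 ± 0.22 in total mRNA (adjusted p = 0.139). The total mRNA changes of ITGA3 (-0.70 ± 0.17, adjusted p = 0.0931) and ITGA6 reached significance only in some settings, such as a fit with the replicate number as a block (adjusted p = 0.0181 and 0.00975).

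ITGB1 is the common partner of the alpha chains that bind collagen, laminin and fibronectin. Its total mRNA level was 449 and 432 CPM in MB-231-shNSi and 207 and 322 CPM in MB-231-shDAP5. Heavy polysomes carried it at 975 and 1613 CPM in MB-231-shNSi and 248 and 179 CPM in MB-231-shDAP5, and light polysomes 131 and 129 CPM in MB-231-shNSi and 94.1 and 85.8 CPM in MB-231-shDAP5. It showed a log2 change of -2.52 ± 0.39 in heavy polysomes, a 5.73-fold decrease (adjusted p = 1.59e-07), with the lines separate in every fraction. ITGB4, whose long tail anchors hemidesmosomes to keratin through plectin, had the only estimate above 0 in total mRNA. Total mRNA held 141 and 119 CPM in MB-231-shNSi and 169 and 107 CPM in MB-231-shDAP5. In heavy polysomes it had 182 and 282 CPM in MB-231-shNSi and 128 and 85.0 CPM in MB-231-shDAP5, and in light polysomes 68.0 and 50.2 CPM in MB-231-shNSi and 115 and 62.1 CPM in MB-231-shDAP5. Its total and light levels overlapped between lines (log2 0.12 ± 0.22 and 0.61 ± 0.35), while its heavy level fell by 1.04 ± 0.34 on the log2 scale (adjusted p = 0.0133).

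ITGB3 and ITGB5 are the beta partners of alpha V in the vitronectin receptors. ITGB3 had few reads, with 1.07 and 1.57 CPM in MB-231-shNSi and 0.685 and 0.847 CPM in MB-231-shDAP5 in total mRNA. Heavy polysomes held ITGB3 at 1.99 and 3.73 CPM in MB-231-shNSi and 1.12 and 0.876 CPM in MB-231-shDAP5, light polysomes 0.630 and 0.587 CPM in MB-231-shNSi and 0.511 and 0.284 CPM in MB-231-shDAP5. The lines were separate in all 3 fractions at these few reads, and the heavy polysome change was -1.43 ± 0.49 (adjusted p = 0.0183). The total mRNA level of ITGB5 was 86.8 and 94.3 CPM in MB-231-shNSi and 64.9 and 56.8 CPM in MB-231-shDAP5. ITGB5 was at 113 and 136 CPM in MB-231-shNSi and 71.7 and 72.6 CPM in MB-231-shDAP5 in heavy polysomes, and at 68.4 and 88.7 CPM in MB-231-shNSi and 48.0 and 47.5 CPM in MB-231-shDAP5 in light ones. This mRNA was lower by a like amount in every fraction, with log2 changes of -0.54 ± 0.18 in total, -0.69 ± 0.27 in light and -0.71 ± 0.33 in heavy polysome mRNA, and none of the 3 passed the test (adjusted p = 0.209, 0.551 and 0.0825).

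Translation efficiency, the heavy polysome level over the total mRNA level of the same culture, fell for 8 of 10 subunits (background 8.23% lower), the 6 alpha subunits, ITGB1 and ITGB4, while ITGB3 and ITGB5 did not pass the test. Whether the change of ITGB3 or ITGB5 differed from that of the other subunits was not tested. The median over the 10 was -1.30 on the log2 scale beside 0.09 for all genes, and both MB-231-shDAP5 cultures lay below both MB-231-shNSi cultures for 9 of 10 (28% of all genes). ITGAV had log2 ratios of heavy to total of 1.14 and 1.89 in MB-231-shNSi and 0.57 and -1.45 in MB-231-shDAP5, a change of -1.95 ± 0.55 (adjusted p = 0.0396). For ITGB1 the ratios were 1.07 and 1.86 in MB-231-shNSi against 0.23 and -0.86 in MB-231-shDAP5, a change of -1.78 ± 0.39 (adjusted p = 0.00750). The control cultures thus carried both mRNAs at a higher share in heavy polysomes than in the total, and the MB-231-shDAP5 cultures did so in 1 culture of 2. ITGA2 changed by -1.87 ± 0.47 (adjusted p = 0.0186), ITGA1 by -1.58 ± 0.37 (0.00824) and ITGA6 by -1.44 ± 0.36 (0.0104). Smaller changes were found for ITGA3 (-1.16 ± 0.39, adjusted p = 0.0394), ITGB4 (-1.15 ± 0.35, 0.0254) and ITGA5 (-1.14 ± 0.34, 0.0239). ITGB3 stood at -0.68 ± 0.55 (adjusted p = 0.422) and ITGB5 at -0.18 ± 0.33 (adjusted p = 0.758), the latter with ratios of 0.33 and 0.48 in MB-231-shNSi and 0.12 and 0.34 in MB-231-shDAP5. Without the second MB-231-shNSi culture no subunit was called (3 genes lower and 1 higher of 15976, median of the subunits -0.97), nor without the second MB-231-shDAP5 culture (39 genes lower and 4 higher of 15914, median -1.17). With library sizes alone or without a term for each culture no gene at all was called by edgeR, with adjusted p-values of 0.0697 to 0.943 and 0.116 to 0.754 for the subunits, and the median of the subunits relative to that of all genes was -1.39 and -1.47, beside -1.39 in the fit reported. With the replicate number as a block 5 were called (ITGAV, ITGA1, ITGA2, ITGA6 and ITGB1), and limma on quantile-normalized values called 1.

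In light polysomes the translation efficiency of no subunit passed the edgeR test (background 0% of 15967 genes), with 1 at an unadjusted p under 0.05 (ITGA1, 0.87 ± 0.32 on the log2 scale, adjusted p = 0.879) and none called by DESeq2 or limma. Of the 10 estimates 9 were above 0, with a median of 0.31 beside 0.01 for all genes, and both MB-231-shDAP5 cultures lay above both controls for ITGA1, ITGA3, ITGA5 and ITGB4 (18.6% of all genes). The median was 0.05 without the first MB-231-shDAP5 culture and 0.63 without the second. Without the first MB-231-shNSi culture 3 were called higher, in a fit that called 1236 genes lower and 794 higher of 16467. With all cultures in the fit the estimates were 0.42 ± 0.26 for ITGA2, 0.26 ± 0.29 for ITGA3, 0.34 ± 0.23 for ITGA5, 0.29 ± 0.25 for ITGA6 and 0.38 ± 0.30 for ITGAV. Among the beta subunits they were 0.25 ± 0.30 for ITGB1, 0.16 ± 0.65 for ITGB3, 0.50 ± 0.23 for ITGB4 and -0.11 ± 0.21 for ITGB5, the only one below 0.

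Whether the lines differed more in heavy than in light polysomes was tested directly, as the change of the heavy to light ratio between them. That ratio fell for 7 of 10 subunits (background 5.21% lower), namely ITGAV, ITGA1, ITGA2, ITGA5, ITGA6, ITGB1 and ITGB4, and both MB-231-shDAP5 cultures lay below both controls for all 10 (28.2% of all genes). ITGA1 went from log2 ratios of 1.63 and 2.97 in MB-231-shNSi to -0.18 and -0.23 in MB-231-shDAP5 (change -2.51 ± 0.47, adjusted p = 0.0175). ITGAV went from 3.32 and 3.47 to 1.58 and 0.41 (change -2.39 ± 0.44, adjusted p = 0.0175), and ITGB1 from 2.83 and 3.61 to 1.28 and 0.98 (change -2.08 ± 0.51, adjusted p = 0.0240). ITGA3, at -1.47 ± 0.55, missed the threshold (adjusted p = 0.0980), as did ITGB3 at -0.88 ± 0.69 (0.459). The ratios of ITGB5 were 0.66 and 0.58 in MB-231-shNSi and 0.47 and 0.53 in MB-231-shDAP5, a difference of -0.12 ± 0.39 (adjusted p = 0.891). Without the second MB-231-shDAP5 culture none was called (1 gene lower and 1 higher of 16584), and the median of the subunits was -1.75 beside -1.74 with all cultures. Without the first MB-231-shDAP5 culture 3 were called (595 genes lower and 194 higher of 16455) and without the second MB-231-shNSi culture 4 (422 genes lower and 325 higher of 16578).

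**Figure D3:**
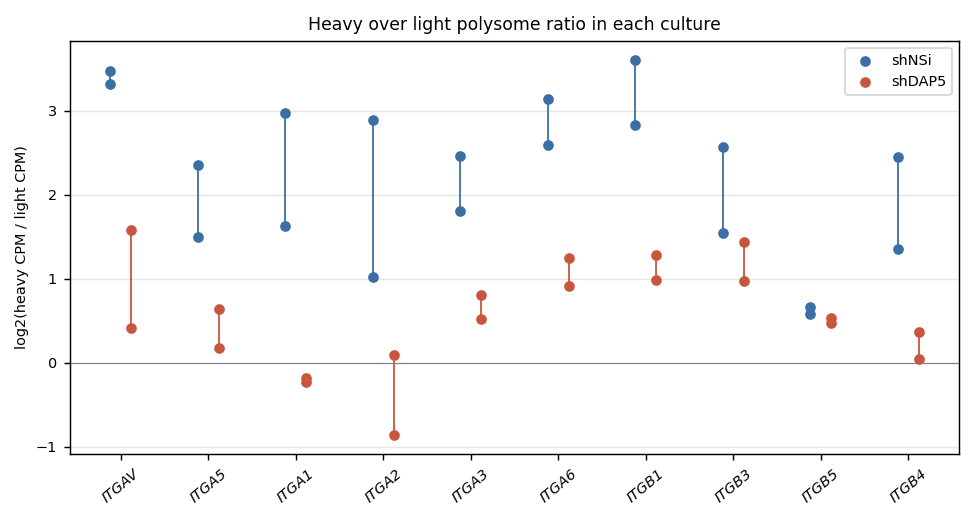
Log2 ratio of heavy to light polysome CPM in each culture (points, joined within a line, blue MB-231-shNSi, red MB-231-shDAP5). The red pair lies below the blue pair for all 10 subunits, with fitted differences of -2.51 for ITGA1 and -0.12 for ITGB5.

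Integrin subunits have long coding sequences, from 2364 nt (ITGB3, 788 codons) to 5466 nt (ITGB4, 1822 codons). The median was 1422 nt over the genes tested for translation efficiency. Each gene's length is that of a single GENCODE v29 transcript. It was chosen first by the annotation's marks for a principal (APPRIS) and a basic transcript, and only then by length. Across 12682 genes with a length the change in heavy translation efficiency correlated with coding length at rho = -0.708, and across 12715 genes the MB-231-shNSi heavy to light ratio at rho = 0.649. These genes share libraries and are not independent, so no p-value is attached. The 2440 genes within the members' range of lengths had a median change in heavy translation efficiency of -0.72, 28.1% of them were called lower, and 8 of 10 subunits lay below that median. In total mRNA the same band had a median of -0.03, above 9 of 10 subunits. With coding length fitted as an offset in each library, the median change in heavy translation efficiency over the 10 was -0.59, and ITGAV (-1.26, adjusted p = 0.0302), ITGA2 (-1.12, 0.0338) and ITGB1 (-1.25, 0.0143) were still called lower. ITGB5 then turned to 0.35 (adjusted p = 0.460), and ITGB4, the longest member, went to -0.21 (0.711). In heavy polysome mRNA under the same offsets 6 were called lower, ITGAV, ITGA1, ITGA3, ITGA5, ITGA6 and ITGB1, in a fit that called 846 genes lower and 611 higher of 12333. For the heavy to light ratio between the lines none was, where 28 genes lower and 37 higher of 12804 were called.

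**Figure D4:**
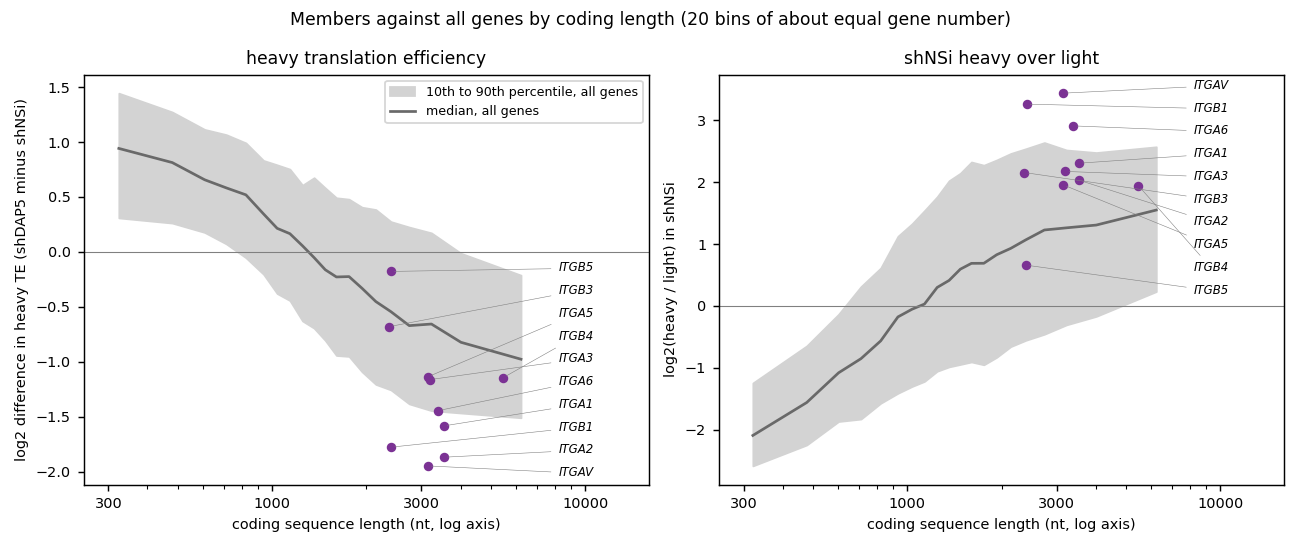
Left, change in heavy translation efficiency between the lines, and right, log2 ratio of heavy to light polysomes in MB-231-shNSi, against coding sequence length in nt (log axis). The line is the median and the band the 10th to 90th percentile of all genes in 20 bins of length, and each labelled point is 1 integrin subunit. ITGAV, ITGA1, ITGA2 and ITGB1 lie below the band on the left, and ITGB5 lies above the median there.

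Against the moderate instead of the heavy control pool the integrin decrease was not detectable. In the MB-231-shNSi moderate pool ITGB1 was at 236 and 354 CPM and ITGAV at 13.5 and 23.3 CPM, values that overlap those of the MB-231-shDAP5 heavy pool. With that pool in place of the heavy one, no subunit was called in heavy translation efficiency (edgeR, and none at an unadjusted p under 0.05, in a fit that called 0 genes lower and 0 higher of 15434), and the estimates of 9 of 10 turned positive, from 0.17 for ITGA2 to 1.13 for ITGB3. In heavy polysome mRNA against the same pool none was called either (24 genes lower and 26 higher of 14539), with 1 at an unadjusted p under 0.05 (ITGB4, at 0.85). With the counts of heavy and moderate control pools summed, the median change was -0.47 and no subunit and no gene of 15386 passed the edgeR test, with 3 subunits at an unadjusted p under 0.05 (ITGA2 at -1.004, ITGAV at -0.98 and ITGB1 at -0.89). For heavy polysome mRNA the summed control (337 genes lower and 84 higher of 15184) still gave 6 subunits called lower (ITGAV, ITGA1, ITGA2, ITGA5, ITGA6 and ITGB1), with ITGB1 at -1.75 (adjusted p = 0.00215), and none once coding length was also fitted and 14 genes lower and 9 higher of 12665 were called (ITGB1 at -1.51, 0.0588). Whether the heavy pools of the lines span the same part of the gradient was not tested.

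**Figure D5:**
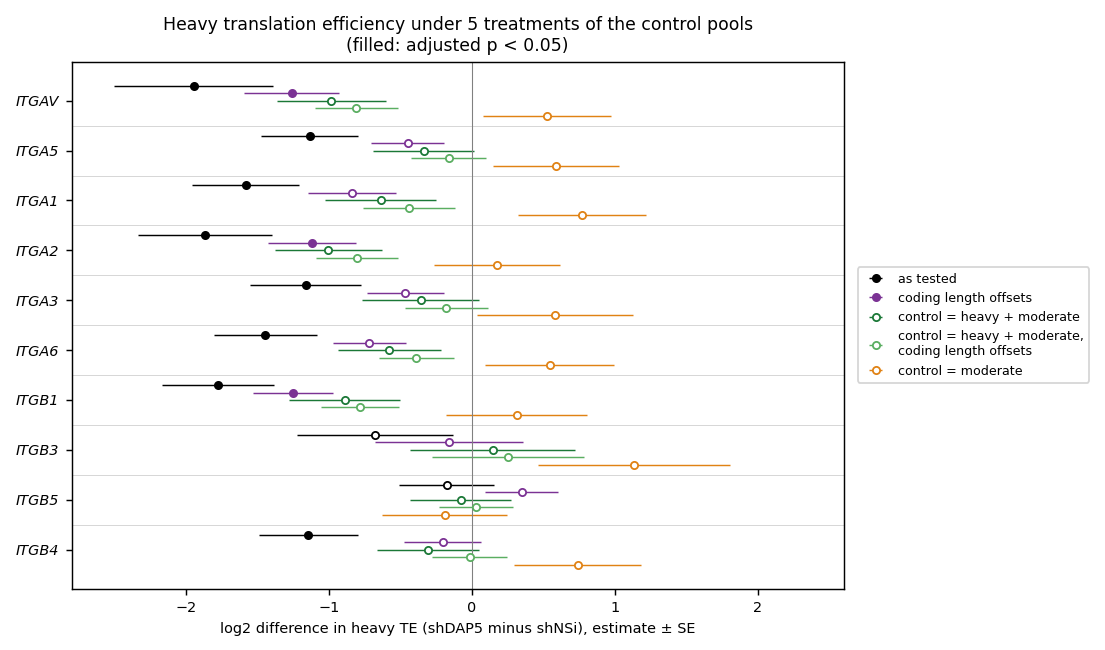
Change in heavy translation efficiency (log2, estimate ± SE) of each subunit as tested, with coding length offsets, with the MB-231-shNSi heavy and moderate pools summed, with both, and with the moderate pool alone as control. Filled points passed an adjusted p of 0.05, and the moderate control puts 9 of 10 estimates above 0.

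Few of the 16 other integrin subunit genes were expressed. ITGA4 had no read in any of the 14 libraries, and 6 subunits (ITGA7, ITGA10, ITGAD, ITGAE, ITGB2 and ITGB8) passed the filter on low counts in heavy translation efficiency. Of these 6, edgeR and DESeq2 called none lower and 1 higher (background 4.85% higher), and limma called none. The estimates of ITGA7 (-1.07 ± 0.91, adjusted p = 0.451), ITGA10 (0.45 ± 0.82, 0.755), ITGAD (-0.82 ± 0.98, 0.613) and ITGB8 (0.01 ± 1.17, 0.998) rest on few reads. ITGAE, the alpha E chain known from intraepithelial lymphocytes, had the reverse distribution. It had 56.6 and 33.9 CPM in light and 6.44 and 9.49 CPM in heavy polysomes of MB-231-shNSi, while MB-231-shDAP5 had 80.3 and 85.4 CPM in light and 19.4 and 22.6 CPM in heavy polysomes. Its light level exceeded its heavy level in each culture (log2 heavy over light -2.50 ± 0.31 in MB-231-shNSi, adjusted p = 1.27e-05), and its heavy translation efficiency was higher with the silencing by 1.13 ± 0.35 on the log2 scale (adjusted p = 0.0300). That call was lost with library sizes alone, with limma, with the replicate block, and without either MB-231-shNSi culture or the second MB-231-shDAP5 culture. ITGB2, the leukocyte beta chain, was at 11.4 and 15.2 CPM in heavy polysomes of MB-231-shNSi and 4.12 and 5.49 CPM in MB-231-shDAP5 (log2 -1.39 ± 0.38, adjusted p = 0.00246), with a change in translation efficiency of -0.76 ± 0.37 (0.161). In heavy polysome mRNA 5 of these genes were tested, with 3 called lower (all genes 16.7%) and 1 higher (14.2%). Beside ITGB2, ITGAD (-2.74 ± 0.67, adjusted p = 6.92e-04) and ITGA7 (-1.69 ± 0.69, 0.0498) were called lower and ITGAE higher (1.48 ± 0.36, 6.19e-04), while ITGB8 stood at 0.72 ± 0.57 (0.336).

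The partners of the integrins were followed in 6 lists, chosen like the subunits with earlier results of these data known. LAMC1, a laminin chain among the ligands, also stands on the study's list of lost polysome mRNA. The counts of these lists are thus not independent evidence. In heavy translation efficiency 16 of 22 ligand genes tested were called lower and none higher, with a median of -1.31 beside 0.09 for all genes, against 8.23% lower and 4.85% higher among all genes. Their median coding length was 5072 nt, beside 3172.5 nt for the integrins. Of the genes in the integrins' range of lengths, which is not matched to the ligands, 28.1% were called lower. LAMB3, a chain of the laminin of epithelial basement membranes, fell by 1.24 ± 0.36 (adjusted p = 0.0194), whereas CYR61, a matricellular ligand and the most abundant of the list, stood at -0.02 ± 0.38 (0.975). Of the 14 activators and inhibitors of integrins 4 were lower (all genes 8.23%) and 1 higher (4.85%), the lower ones including talin 1 (TLN1, -1.32 ± 0.37, adjusted p = 0.0180) and filamin A (FLNA, -1.60 ± 0.41, 0.0108), which bind beta tails. Adhesion adaptors gave 4 of 16 lower, beside the same all-gene share, with the actin crosslinkers ACTN1 at -1.33 ± 0.38 (0.0202) and ACTN4 at -1.42 ± 0.39 (0.0154). The signalling genes downstream gave 2 of 15 lower, again beside that share, and the adaptor BCAR1 and the kinase PAK2 stood at -0.41 ± 0.34 (0.441) and -0.58 ± 0.35 (0.261). Of 13 membrane partners, such as the tetraspanin CD151, none was called by edgeR, DESeq2 or limma and 1 had an unadjusted p under 0.05, with a median of 0.07 and a median coding length of 801 nt, and the amino acid transporter SLC7A5 and basigin (BSG) stood at -0.05 ± 0.37 (0.947) and -0.26 ± 0.38 (0.689). Among 4 hemidesmosome genes only plectin (PLEC) was called lower (-1.10 ± 0.38, 0.0489), beside 8.23% of all genes, and CD151 stood at 0.23 ± 0.35 (0.701). The counts of these lists depended on the fit. With library sizes alone, no culture term, or the moderate or summed control pool no gene at all was called, and without the second MB-231-shNSi culture none of the ligands, activators and inhibitors, adaptors or signalling genes was called lower. Without the second MB-231-shDAP5 culture 4 ligands were called lower and none of the other 3 lists. With counts corrected for coding length 2 ligands and 1 adaptor were called lower, with limma 4 ligands, and with the replicate block 11 ligands and 1 adaptor, and under none of these 3 settings an activator, inhibitor or signalling gene. In total mRNA 1 activator or inhibitor was called lower (0.267% of all genes) and 1 ligand higher (0.0867%) over the 6 lists.

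The balance between subunits can be read as ratios. The level summed over the alpha members, without ITGAE, was set over the ITGB1 level, both per kb. This ratio was 2.08 and 2.67 in total mRNA of MB-231-shNSi and 2.79 and 2.12 in MB-231-shDAP5, and in heavy polysomes 1.55 and 1.91 against 2.11 and 3.09. Total mRNA ratios thus overlapped between the lines and heavy polysome ratios were higher in both MB-231-shDAP5 cultures. ITGA6 over ITGB4, the pair of the hemidesmosome receptor, was 2.03 and 1.95 in heavy polysomes of MB-231-shNSi and 0.759 and 0.979 in MB-231-shDAP5, and in total mRNA 1.37 and 1.45 against 0.467 and 1.21, lower in both MB-231-shDAP5 cultures in either fraction. ITGAV over ITGB5 was 0.564 and 0.721 in heavy polysomes of MB-231-shNSi and 0.255 and 0.116 in MB-231-shDAP5, and overlapped in total mRNA (0.322 and 0.271 against 0.187 and 0.402). These ratios are given as a description, with no test.

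Across the 14 libraries most of the subunits varied together. The log2 CPM of ITGA6 and ITGB1 correlated at r = 0.996 over the 14 libraries and those of ITGA3 and ITGA5 at r = 0.989, whereas ITGB4 and ITGB5 correlated at r = 0.197, the lowest of the 45 pairs. Against the mean standardized profile of the 8 members with at least 10 CPM, which includes each of them, ITGB5 (r = 0.722) and ITGB4 (r = 0.771) were least alike and ITGA3 (r = 0.983) most. Among 9379 other genes of that level the closest to this profile were IGSF3, an immunoglobulin superfamily membrane protein (r = 0.991), ERAP1, an aminopeptidase of the endoplasmic reticulum (r = 0.990), CANX, the lectin chaperone calnexin (r = 0.990), CPD, a membrane carboxypeptidase (r = 0.990), and SERINC1 (r = 0.989). These points share cultures, pools and depth, and the values are given as a description.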

How the data were processed

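RNA-seq was run on 14 libraries of MDA-MB-231 cultures, 8 MB-231-shNSi and 6 MB-231-shDAP5. The values are raw read counts per gene symbol, deposited by the authors in 1 table with no column left unused. Per the submitters' processing notes, reads were aligned with STAR 2.6.0a to hg19. The version and annotation of the counting step are not given in the sources used here, and the name of the table points to a reverse-strand setting. A spreadsheet had turned 27 gene symbols into dates, none of them an integrin.

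Counts were scaled by TMM and tested with edgeR 4.0.16 (R 4.3.3), quasi-likelihood, robust, after filterByExpr, with Benjamini-Hochberg adjustment over all genes tested and a threshold of 0.05. Lines were compared within total, light or heavy libraries. Translation efficiency and the heavy to light ratio between the lines were tested as the interaction of fraction and shRNA with a term for each culture. Comparisons of pools within a line used all its libraries and a term for each culture. DESeq2 1.42.0, limma 3.58.1 on log2(CPM + 1) with quantile normalization, other filters, offsets for coding length (loess, span 0.5), other control pools and the omission of each culture were alternatives. The scripts were tested on simulated data. Without a spike-in, CPM are shares of a pool. Depth was 25899838 to 30795910 counts a library, and the reads behind a subunit ranged from 9 to 83 a library for ITGB3 and from 11518 to 76413 for ITGA3. Counting error and the spread between cultures were not separated.

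Lengths and chromosomes come from GENCODE v29 (GRCh38), in which 37621 of 58434 symbols matched by name and 505 through another symbol. No coordinates are given, since the counts were made on another build. All 10 subunits enter every comparison, by name or within a range. Other integrin subunits are named where they passed the filter, other lists by the 2 genes highest in total mRNA, and like genes by the 5 highest correlations among genes with a mean of at least 10 CPM. The subunits and lists were chosen with earlier results of these data known. Heavy and moderate pools summed with coding length offsets, and the crossed block, were alternatives chosen after seeing the data.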

Additional observations from a re-analysis of the deposited data

Results flagged for a closer look

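For 7 subunits the change with the shRNA differed between heavy and light polysomes by the test of that difference (edgeR, interaction of fraction and shRNA, 2 cultures a line). The heavy minus light change was -2.51 on the log2 scale for ITGA1, -2.34 for ITGA2 and -2.39 for ITGAV. It was -2.08 for ITGB1, -1.79 for ITGA6, -1.70 for ITGB4 and -1.52 for ITGA5. The same direction was called for 5.21% of all genes tested. Among genes with a coding sequence in the integrins' range of lengths it was called for 21.8%. With counts corrected for coding length no subunit was called (28 genes lower and 37 higher of 12804), and limma and the fit with no culture term called no gene at all. Without the second MB-231-shDAP5 culture no subunit was called either (1 gene lower and 1 higher of 16584). No group had the 4 or more libraries that a test for a single outlying library needs.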

How the results depend on the processing

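Calls on single subunits rested on few cultures and on the control pool. Over the alternatives run for single genes, which include EIF4G2 beside the subunits, 932 values were labelled as unchanged. Of the others, 165 lost and 47 gained a call, and 46 changed sign. The 932 include values within a line with a culture left out, which have no p-value and so no side of the threshold. They are thus not a count of calls that held. The cause of the lost and gained calls and of the sign changes was not tested.

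Counts of subunits called lower moved as follows. In total mRNA 1 was called by DESeq2, 4 without a filter, 4 with the replicate number as a block, and 0 to 3 with 1 culture left out. In heavy polysome mRNA leaving out 1 culture gave 0 to 9, the moderate control 0 (all genes 24 lower and 26 higher), and the summed control with length offsets 0 (14 lower and 9 higher). In light polysome mRNA leaving out 1 culture gave 0 to 4 lower and 0 to 1 higher, and the moderate control 4 lower. In heavy translation efficiency coding length offsets gave 3, also with the block, the block alone 5 and limma 1, while library sizes alone, no culture term, the moderate control and the summed control with or without length offsets gave 0 and called no gene at all, and leaving out 1 culture 0 to 8. In light translation efficiency 0 to 3 were called higher with 1 culture left out. For the heavy to light ratio between the lines, length offsets gave 0 (all genes 28 lower and 37 higher), as did limma and no culture term, under which no gene was called, length offsets with the block 3, and leaving out 1 culture 0 to 8. Within lines, length offsets gave 1 subunit higher in the moderate than in the heavy pool of MB-231-shNSi, and 1 lower and 2 higher in heavy over light of MB-231-shDAP5, where library sizes alone gave 2 higher.

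Signs changed in these cases (log2). With 1 culture left out, total mRNA ranged over -0.61 to 0.15 for ITGA2 and -0.27 to 0.40 for ITGB4, light polysome mRNA over -0.083 to 0.41 for ITGA2, and light translation efficiency over -0.48 to 0.69 for ITGB3, -0.053 to 0.81 for ITGAV, -0.026 to 0.58 for ITGA6 and -0.16 to 0.64 for ITGB1. Against the moderate control, heavy polysome mRNA gave ITGA1 0.20, ITGA2 0.060, ITGB3 0.40, ITGB4 0.85, and heavy translation efficiency ITGAV 0.52, ITGA1 0.77, ITGA2 0.17, ITGA3 0.58, ITGA5 0.59, ITGA6 0.54, ITGB1 0.31, ITGB3 1.13, ITGB4 0.74. Light translation efficiency against the moderate pool gave ITGAV -0.48, ITGA3 -0.072, ITGA6 -0.53, ITGB1 -0.81, ITGB3 -0.091, and against light and moderate summed ITGAV -0.078, ITGA6 -0.15, ITGB1 -0.35. The summed heavy control gave ITGB3 0.14 in heavy translation efficiency, and with length offsets ITGB3 0.25 and ITGB5 0.029 there and ITGB4 0.12 in heavy polysome mRNA. ITGB5 in heavy translation efficiency was 0.037 with library sizes alone and 0.35 with length offsets, with or without the block (0.35). Its heavy to light ratio between the lines was 0.12, 0.55 and 0.55 under the same 3 settings, 0.097 with limma and 0.47 with the moderate pool for the light one. Within MB-231-shNSi it was -0.43 for heavy over light with length offsets, and for moderate over heavy 0.25 with library sizes alone and 0.77 with length offsets. ITGB4 in heavy over light of MB-231-shDAP5 was -0.011 with length offsets.

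Over all genes, heavy translation efficiency had 1266 lower and 746 higher, against 268 lower and 208 higher with length offsets, 519 lower and 169 higher with the block, 167 lower and 241 higher with limma, 3 lower and 1 higher without the second MB-231-shNSi culture and 39 lower and 4 higher without the second MB-231-shDAP5 culture. Total mRNA had 40 lower and 13 higher, DESeq2 called 196 lower and 77 higher, the block gave 253 lower and 112 higher, and heavy polysome mRNA had 2390 lower and 2024 higher, against 337 lower and 84 higher with the summed control. Library sizes alone moved the median of all genes in heavy polysome mRNA from 0.09 to 0.34 and the share of calls that were lower from 54.1 to 31.3%, with the subunits' median -2.13 and -2.11 relative to that of all genes. For the heavy to light ratio between the lines that share went from 77.1 to 39.2%, and the subunits' median relative to all genes was -1.80 and -1.80.

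No pairing of cultures by replicate number was seen in the correlations that follow, which cannot exclude a pairing. Deviations of cultures with the same number correlated at r = -0.0997 in total, 0.04999 in heavy and 0.0490 in light polysome mRNA, -0.187 in heavy and -0.0267 in light translation efficiency, and -0.153 for the heavy to light ratio. With the block 6 subunits were called lower for that ratio and 8 in heavy polysome mRNA. With the numbers crossed, an alternative chosen after seeing the data, 8 were called in heavy translation efficiency and 7 for the ratio. The fewest reads were those of ITGB3, at 9 to 83 a library.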
